A study of Mus musculus with 4 samples.

Results

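The leukocyte integrins and their activator kindlin-3 were followed in tibial bone marrow of obese mice with and without exercise. The 9 genes were chosen by name and not by a cut on their values, but with earlier results of these data known. They encode the integrin β2 chain (Itgb2) and its α partners αL (Itgal), αM (Itgam), αX (Itgax) and αD (Itgad), the α4 (Itga4), β7 (Itgb7) and αE (Itgae) chains, and kindlin-3 (Fermt3). They are 9 of the 55401 genes in the deposited tables, and all 9 passed the filter on low values, a mean of at least 0.1 FPKM. FPKM is fragment abundance corrected for transcript length and library size, so levels could be compared between genes per length.

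All mice were male wild-type (WT) C57/B6 and were put on a high-fat diet (HFD) from 8 weeks of age. The Ob group stayed on the diet alone (HFD, n = 2), and the Ob + Exe group also ran on a treadmill at moderate intensity for 12 weeks (HFD and Exercise, n = 2). No lean group and no exercised lean group was analysed here, so the comparison is between obese mice only. The sequenced marrows were described as representative of their groups, with the n of each group equal to its number of libraries, and pooling of mice is not mentioned. P-values measure the spread between these libraries.

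Integrins are pairs of an α and a β chain that bind ligands on other cells or in the matrix. On leukocytes the β2 pairs hold the cell on endothelial ICAMs, the α4 pairs bind VCAM-1, fibronectin or MAdCAM-1, and αEβ7 binds E-cadherin on epithelium. A resting integrin is bent. A signal through the small GTPase Rap1 brings talin to the β tail, and kindlin-3, the kindlin of blood cells, binds the same tail to bring the integrin to its active state. Loss of β2 or of kindlin-3 causes leukocyte adhesion deficiency in people. In marrow, α4 pairs hold progenitors to VCAM-1 on stroma, and αMβ2 (Mac-1, CD11b/CD18) is the usual surface mark of neutrophils and monocytes.

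The labels name the tissue as bone marrow, but also carry the entries mesenchymal stem cells and fibroblast. The libraries held the RNA of whole marrow. Summed FPKM was 29240 to 68600 for 15 neutrophil markers and 53980 to 82150 for 10 erythroid markers, against 116 to 181 for 13 mesenchymal stroma markers. The 4 libraries held 44310505 to 53038186 read equivalents, which are transcript coverage times length over 150 bases and stand in for read counts that the tables do not give. In bulk marrow, fewer cells of a type and less RNA per cell cannot be told apart.

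None of the 9 genes passed the thresholds of the study's methods, an unadjusted p under 0.05 with a log2 fold change beyond 1. Over all 18596 genes tested with limma, 3.74% passed them, 185 higher and 511 lower in Ob + Exe. None of the 9 reached an unadjusted p under 0.05 in the main fit with limma or with voom, against 5.05% of all genes in the main fit. No gene of the whole table reached an adjusted p under 0.05, and the smallest was 0.737. Means were higher in Ob + Exe for 7 members and lower for 2, on the log2 scale, and the median log2 fold change of 0.07 stood beside -0.02 for all genes. Of the 7, Itgax, Itgb7 and Fermt3 were below 0 without library scaling. On scaled FPKM, the libraries of the groups did not overlap for 1 of 9 members, Itgal, against 32.6% of all genes.

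**Figure D1:**
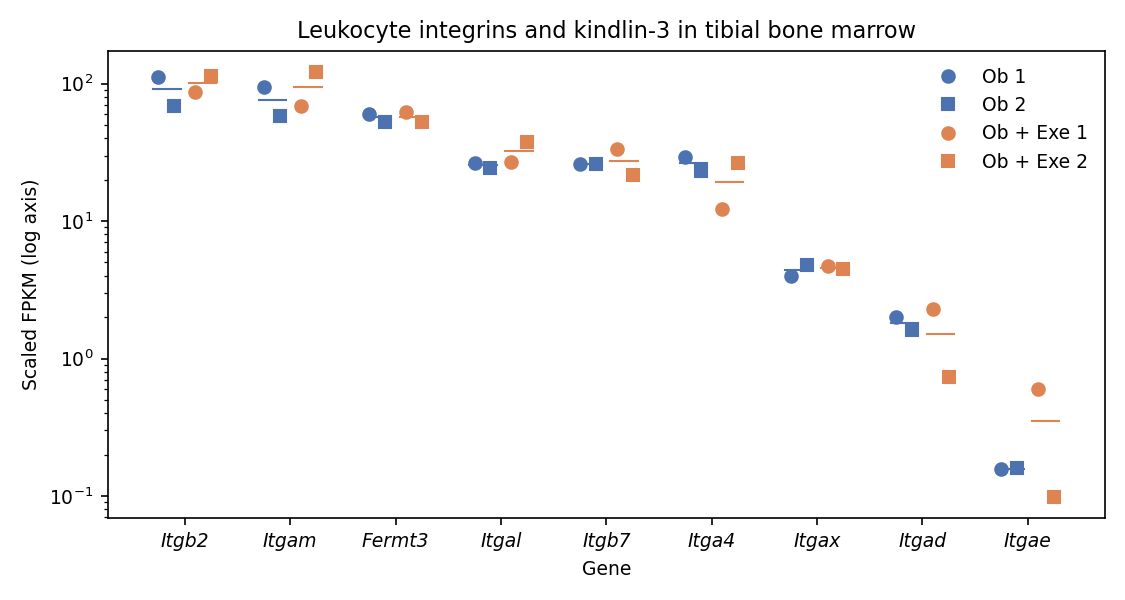
Scaled FPKM (log axis) of the 9 genes in each library, ordered by mean, with circles for replicate 1, squares for replicate 2 and short lines for group means. Levels spanned from 0.0989 for Itgae to 122 for Itgam, and only Itgal had both Ob + Exe points above both Ob points.

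The order of the levels was led by the β2 chain. Itgb2 had the highest mean (95.6 scaled FPKM over 4 libraries), followed by Itgam (85.7), Fermt3 (56.9), Itgal (28.8), Itgb7 (26.7), Itga4 (22.8), Itgax (4.49), Itgad (1.66) and Itgae (0.255). The ranges of Itgb2 and Itgam overlapped, as did those of Itgam and Fermt3, of Itgal and Itgb7, and of Itgb7 and Itga4. The ranges of the other neighbours, Fermt3 and Itgal, Itga4 and Itgax, Itgax and Itgad, and Itgad and Itgae, were separate.

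Itgb2 encodes β2 (CD18), the chain that every LFA-1, Mac-1, αXβ2 and αDβ2 receptor needs to reach the surface. The gene lies at chr10:77530252-77565708 on the plus strand (GRCm38). Transcript abundance in scaled FPKM was 112 and 69.2 in Ob against 87.3 and 114 in Ob + Exe. The highest and the lowest Ob values enclosed nearly the whole Ob + Exe range, and the groups overlapped. The means were 90.7 ± 30.5 (SD, n = 2) and 100 ± 18.5 (SD, n = 2), a log2 fold change of 0.17 (SE 0.30, adjusted p = 0.975). The 95% interval of the fold, 0.676 to 1.89, leaves room for a fall or a rise of moderate size. Without Ob replicate 2 the log2 fold change was -0.19, and without Ob + Exe replicate 2 it was -0.03.

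The β2 tail is shown because talin and kindlin-3 dock on it. The last 50 codons of Itgb2-201 and of Itgb7-201 are printed from the GENCODE vM21 transcripts (GRCm38), with introns left out, and capitals mark codons that read Asn-Pro-any-Phe or Asn-Pro-any-Tyr, the motifs on which talin (the first) and kindlin (the second) are known to act. The Itgb2-201 stretch spans chr10:77564715-77565237 and the Itgb7-201 stretch chr15:102216163-102216516, read from the minus strand.
Itgb2-201: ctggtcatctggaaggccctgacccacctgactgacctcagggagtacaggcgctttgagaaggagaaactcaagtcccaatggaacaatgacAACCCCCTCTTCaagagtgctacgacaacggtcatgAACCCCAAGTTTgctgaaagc
Itgb7-201: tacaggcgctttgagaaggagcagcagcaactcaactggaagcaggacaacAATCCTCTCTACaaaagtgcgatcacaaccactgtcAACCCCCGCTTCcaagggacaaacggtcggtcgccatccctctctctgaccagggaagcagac

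Both β tails hold 2 such motifs. In Itgb2 they start 19 and 7 codons from the end of its 770 codons, and in Itgb7 33 and 21 codons from the end of its 806 codons. Itgb1, the other partner of α4, has them at 19 and 7 codons from the end. Itgb2l, a β2-like chain of mice, has none in its last 50 codons. The 6 α chains each hold GFFKR, the membrane-proximal motif that holds a resting α tail to its β tail, once, 22 (Itgam) to 51 (Itgal) codons from the end.

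The transcripts of Itgb2 took unequal shares between libraries. The full-length transcript Itgb2-201 carried 96.0% and 73.9% of the gene's FPKM in Ob against 96.9% and 99.5% in Ob + Exe. Itgb2-204, annotated as a target of nonsense-mediated decay (NMD), carried 3.71% and 25.1% in Ob against 2.73% in Ob + Exe replicate 1, and was listed at 0 in Ob + Exe replicate 2. The high share was in 1 library, Ob replicate 2, where it rested on 3036 read equivalents. Itgb2-204 lacks exon 12 of Itgb2-201, whose 245 bases are not a multiple of 3 (2 bases over), so the reading frame shifts. The exon lies at chr10:77559479-77559723 and is printed because Itgb2-204 lacks it.
Itgb2 exon 12: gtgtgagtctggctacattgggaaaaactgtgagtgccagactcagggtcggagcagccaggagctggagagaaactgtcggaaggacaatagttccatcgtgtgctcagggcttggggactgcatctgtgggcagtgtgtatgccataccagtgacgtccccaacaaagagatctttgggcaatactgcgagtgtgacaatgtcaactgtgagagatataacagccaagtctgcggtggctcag

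Over all genes, NMD-annotated transcripts held 1.60% and 1.86% of FPKM in Ob against 1.70% and 1.35% in Ob + Exe, with Ob replicate 2 the highest library. Over 1519 genes of at least 10 FPKM with an NMD transcript, the mean NMD share was 7.80% and 7.41% in Ob against 7.94% and 7.16% in Ob + Exe, where Ob replicate 2 was not the highest. StringTie divides reads among transcripts that overlap, so these shares are estimates and no junction reads are in the tables.

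**Figure D2:**
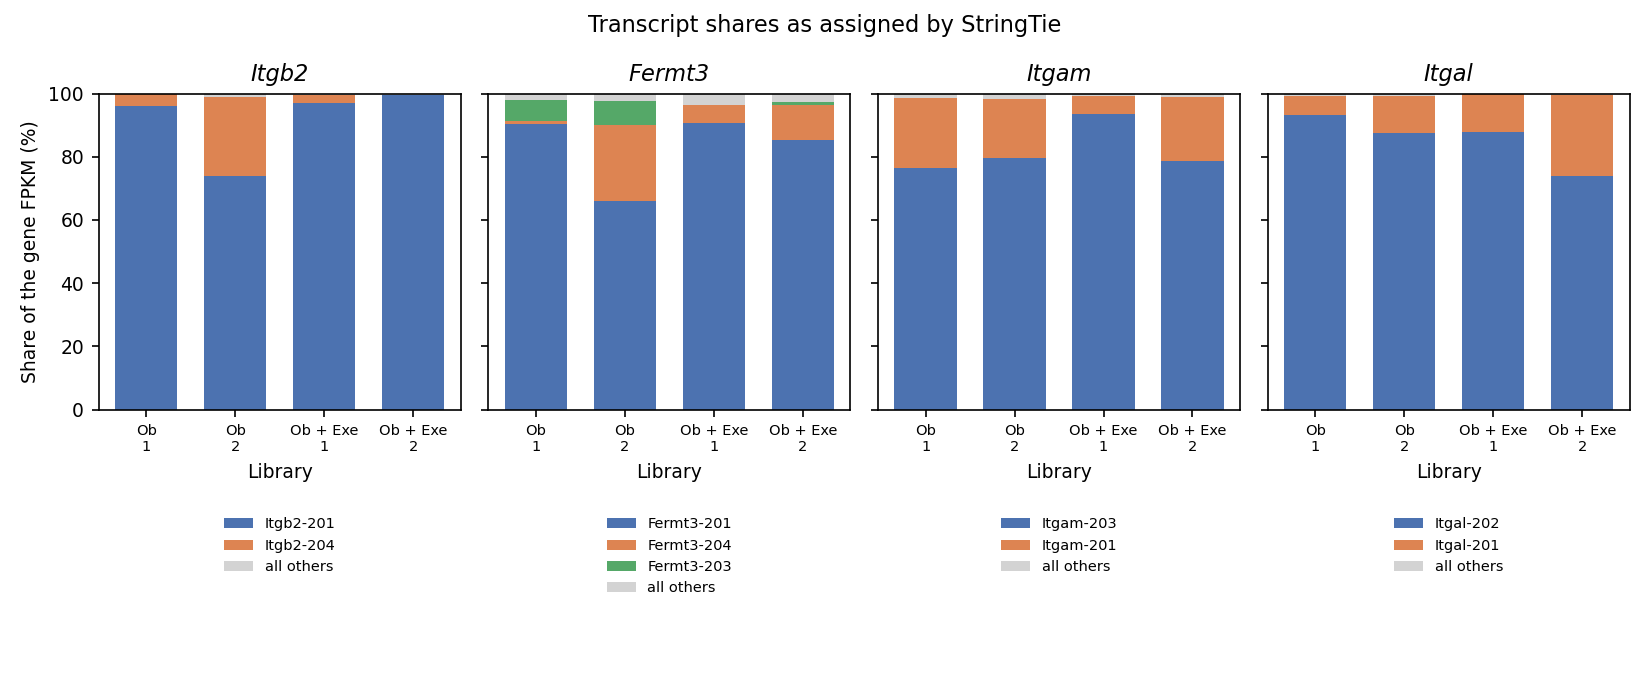
Share of each gene's FPKM (%) that StringTie assigned to its transcripts, as stacked bars for the 4 libraries, for Itgb2, Fermt3, Itgam and Itgal. The Ob 2 bar stands out for Itgb2 (25.1% Itgb2-204) and Fermt3 (24.0% Fermt3-204), and the Ob + Exe 2 bar for Itgal (25.5% Itgal-201).

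Itgam encodes αM, which with β2 binds complement fragment iC3b and fibrinogen and serves phagocytosis. It lies at chr7:128062640-128118491 on the plus strand. Scaled FPKM values were 94.8 and 58.1 in Ob against 68.4 and 122 in Ob + Exe, so 1 library of each group was high and the groups overlapped. The means were 76.5 ± 26.0 (SD, n = 2) and 95.0 ± 37.6 (SD, n = 2), with a log2 fold change of 0.30 (SE 0.37, adjusted p = 0.971) and a fold interval of 0.652 to 2.32. Without Ob replicate 2 the log2 fold change was -0.07, and without Ob + Exe replicate 2 it was -0.13. Gm49368, a gene annotated on the same strand over 55809 bases of the Itgam locus, was at 1.08 to 2.53 scaled FPKM, and reads in shared exons could be divided between them.

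The window before the Itgam start is shown because PU.1, the myeloid factor encoded by Spi1, is known to bind GA-rich sites there. The motif GAGGAA, searched on both strands (TTCCTC is its reverse complement), is in capitals in these 250 bases of RefSeq GRCm38.p6, chr7:128062390-128062639.
Itgam: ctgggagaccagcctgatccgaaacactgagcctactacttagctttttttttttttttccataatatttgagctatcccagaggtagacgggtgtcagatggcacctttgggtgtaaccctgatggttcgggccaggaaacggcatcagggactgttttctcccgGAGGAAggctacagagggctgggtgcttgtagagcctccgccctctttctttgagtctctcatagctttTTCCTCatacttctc

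The motif was found in 1 of the 5 members with a RefSeq window (Itgam; not in those of Itgax, Itga4, Itgb7 and Fermt3), and in 23.3% of all 32851 windows of this length. A match of letters is a description and not a site.

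A pair of Itgam transcripts differs by 3 coding bases at the start of exon 14 of Itgam-201, chr7:128101634-128101636, in capitals below between 30 flanking coding bases on each side.
Itgam-201: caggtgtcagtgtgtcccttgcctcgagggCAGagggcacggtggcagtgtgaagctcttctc
Itgam-203: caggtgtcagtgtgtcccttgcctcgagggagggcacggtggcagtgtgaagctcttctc

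The shorter form, Itgam-203 (1153 codons), carried 76.6% and 79.7% of the gene's FPKM in Ob against 93.4% and 78.5% in Ob + Exe. The longer form, Itgam-201 (1154 codons), carried 22.0%, 18.6%, 5.76% and 20.3% in the same order. Ob + Exe replicate 1 was low and the other libraries were alike, and the groups overlapped.

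Itgal encodes αL, the α chain of LFA-1, the ICAM receptor by which lymphocytes and other leukocytes arrest and form synapses. It lies at chr7:127296260-127335138 on the plus strand. Its libraries gave scaled FPKM of 26.6 and 24.4 in Ob against 26.7 and 37.8 in Ob + Exe. Both Ob + Exe libraries were above both Ob libraries, but the lower Ob + Exe value and the higher Ob value were nearly equal. Without library scaling the groups overlapped, with Ob replicate 1 above Ob + Exe replicate 1. The means were 25.5 ± 1.56 (SD, n = 2) and 32.2 ± 7.80 (SD, n = 2), with a log2 fold change of 0.32 (SE 0.25, adjusted p = 0.960) and a fold interval of 0.819 to 1.90. Without Ob + Exe replicate 2 the log2 fold change was 0.06, and without Ob + Exe replicate 1 it was 0.56.

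The Itgal transcripts also differ by 3 coding bases, at the end of exon 18 of Itgal-201, chr7:127317364-127317366.
Itgal-201: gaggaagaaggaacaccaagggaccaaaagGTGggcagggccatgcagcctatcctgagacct
Itgal-202: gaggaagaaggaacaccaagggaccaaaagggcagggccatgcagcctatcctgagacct

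The shorter Itgal-202 (1161 codons) carried 93.1% and 87.4% in Ob against 87.7% and 74.0% in Ob + Exe. The longer Itgal-201 (1162 codons) carried 6.16% and 12.0% in Ob against 12.1% and 25.5% in Ob + Exe. The share was higher in both Ob + Exe libraries than in both Ob libraries, by a margin at the second decimal between Ob replicate 2 and Ob + Exe replicate 1, and this was not tested.

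Itgax encodes αX (CD11c), best known as a mark of dendritic cells and some macrophages. It lies at chr7:128129547-128150657 on the plus strand. The libraries gave scaled FPKM of 3.98 and 4.80 in Ob against 4.71 and 4.48 in Ob + Exe, with all 4 libraries close together. The log2 fold change was 0.07 (SE 0.29, adjusted p = 0.986), with a fold interval of 0.638 to 1.73. A retained-intron transcript, Itgax-204, carried 10.2% and 10.7% of the gene's FPKM in Ob against 19.0% and 16.2% in Ob + Exe. That share was higher in each Ob + Exe library, which was not tested. It rested on very few reads. Itgax-204 had only 15 to 29 read equivalents per library, while Itgax-201 had 832 to 1159.

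Itgad encodes αD, a β2 partner of tissue macrophages, at chr7:128154376-128223816 on the plus strand. Its level in scaled FPKM was 2.01 and 1.61 in Ob against 2.30 and 0.734 in Ob + Exe, and the Ob + Exe libraries were the highest and the lowest of the 4. The log2 fold change was -0.42 (SE 0.60, adjusted p = 0.975), with a fold interval of 0.266 to 2.09, and it was 0.33 without Ob + Exe replicate 2. Itgax and Itgad share an identical coding stretch of 188 bases, longer than a 150-base read, so reads could be divided between them and both levels are uncertain. Genes on the opposite strand also lie over Itgad, among them Cox6a2, which was listed at 0 in Ob + Exe replicate 2 and was at 1.08 to 2.31 scaled FPKM in the others. The other pairs compared within the family shared at most 26 bases.

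Itgam held the largest share of the β2 partners in every library, followed by Itgal. Of the summed FPKM of the 4 β2 partners, Itgam held 74.5% and 65.4% in Ob against 67.0% and 73.9% in Ob + Exe. Itgal held 20.9% and 27.4% in Ob against 26.2% and 22.9% in Ob + Exe. Itgax held 2.72% to 5.40% and Itgad 0.446% to 2.25%, and the groups overlapped for Itgam and Itgal. The summed α chains over Itgb2 gave 1.13 and 1.29 in Ob against 1.17 and 1.45 in Ob + Exe. This ratio does not depend on library scaling, and it did not separate the groups (log2 difference 0.11, exact permutation test, two-sided p = 0.667, where 0.333 is the smallest p that 2 against 2 libraries allow).

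**Figure D3:**
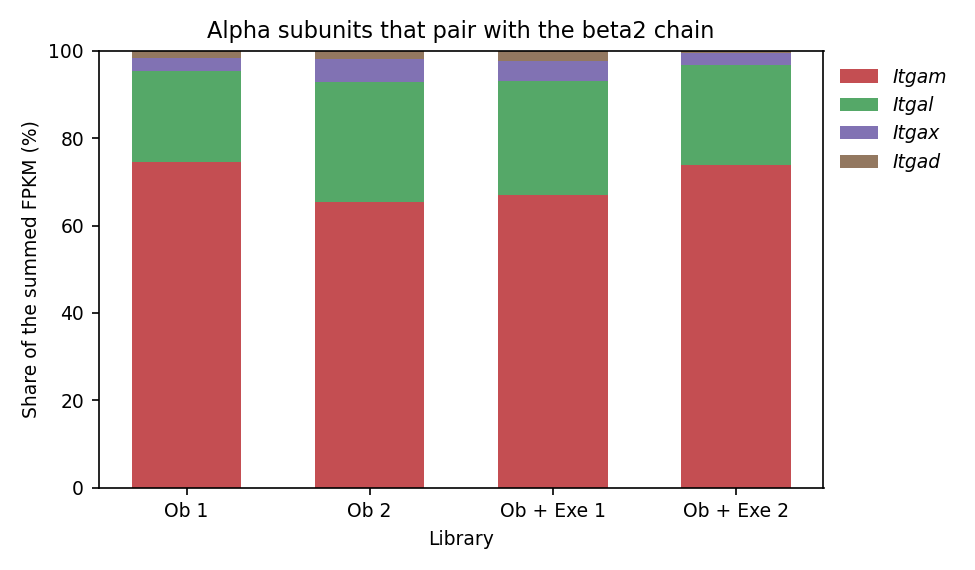
Share (%) of Itgam, Itgal, Itgax and Itgad in their summed FPKM, as stacked bars for each library. Itgam held 65.4% to 74.5% in all 4 libraries.

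Itga4 encodes α4 (CD49d), which pairs with β1 as VLA-4 or with β7. It lies at chr2:79255426-79333123 on the plus strand. Scaled FPKM stood at 29.5 and 23.2 in Ob against 12.3 and 26.5 in Ob + Exe, so 1 library, Ob + Exe replicate 1, was low and the other lay between the Ob values. The means were 26.3 ± 4.46 (SD, n = 2) and 19.4 ± 10.1 (SD, n = 2), with a log2 fold change of -0.53 (SE 0.40, adjusted p = 0.960) and a fold interval of 0.352 to 1.36. Without Ob + Exe replicate 1 the log2 fold change was 0.01. Without Ob + Exe replicate 2 it was -1.10, past the thresholds (adjusted p = 0.386), the only such value among the members with 1 library left out. That fit has the low library alone in Ob + Exe, so its spread within the group comes from the Ob libraries and is assumed to hold for Ob + Exe.

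Itgb1, the β1 chain, was lowest in the same library, by less than Itga4. Itgb1 was at 43.7 and 31.5 scaled FPKM in Ob against 28.8 and 37.9 in Ob + Exe, and Itga4 over Itgb1 was 0.675, 0.736, 0.426 and 0.698 in the same order of libraries. Itga4 over Itgb7 was 1.14, 0.892, 0.368 and 1.22. In both ratios Ob + Exe replicate 1 was the low library and the groups overlapped (exact permutation test, two-sided p = 0.667 and p = 1).

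Itgb7 encodes β7, which pairs with α4 on gut-homing lymphocytes and with αE, and lies at chr15:102215995-102231944 on the minus strand. In scaled FPKM, the gene was at 25.8 and 26.0 in Ob against 33.3 and 21.7 in Ob + Exe. The Ob values were nearly equal and lay between the Ob + Exe values, with a log2 fold change of 0.05 (SE 0.27, adjusted p = 0.987) and a fold interval of 0.656 to 1.64. Without Ob + Exe replicate 1 the log2 fold change was -0.27. Itgae encodes αE (CD103), a mark of tissue-resident T cells and some dendritic cells, at chr11:73090583-73147446 on the plus strand. Scaled FPKM came to 0.157 and 0.159 in Ob against 0.605 and 0.0989 in Ob + Exe, which came to 21 to 137 read equivalents a library. The higher mean of Ob + Exe was carried by replicate 1 (log2 fold change 0.54, SE 0.88, adjusted p = 0.975), and without it the value was -0.38. Haspin, a kinase gene on the opposite strand that lies over Itgae, was at 8.66 to 10.4 scaled FPKM. The library kit is not stated to keep strand, so the reads of Itgae and Haspin could not be told apart where they overlap.

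Fermt3 encodes kindlin-3 and lies at chr19:6998958-7019469 on the minus strand. Its scaled FPKM per library was 60.5 and 53.0 in Ob against 61.9 and 52.3 in Ob + Exe, with the Ob values inside the Ob + Exe range. The log2 fold change was 0.01 (SE 0.21, adjusted p = 0.999), and its fold interval, 0.703 to 1.44, was the narrowest of the 9. The other kindlins were low or at 0. Fermt2, which encodes the kindlin of many adherent cells, was at 0.860 to 1.56, and Fermt1, the kindlin of epithelium, was listed at 0 in every library.

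**Figure D4:**
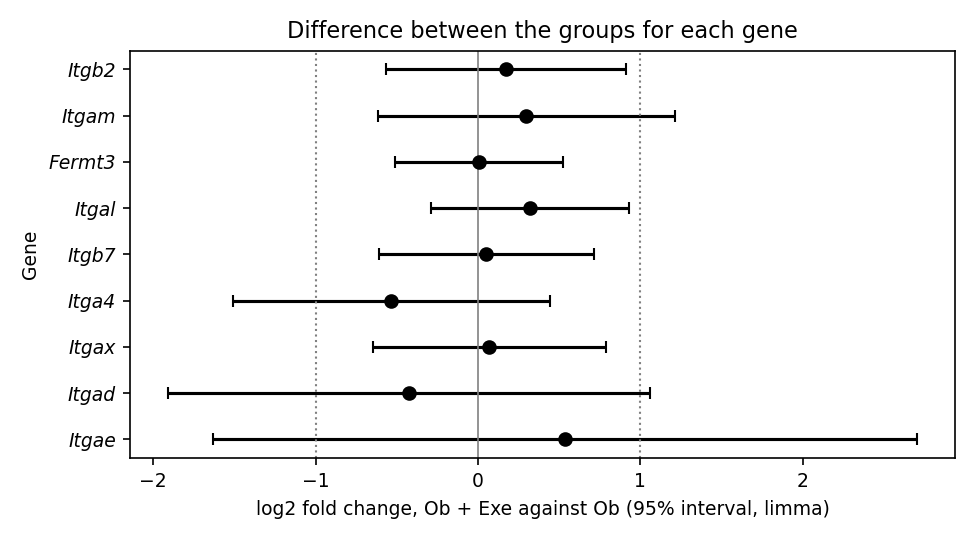
log2 fold change of Ob + Exe against Ob for each gene, with its 95% interval from limma, ordered by mean level. Every interval crossed 0, and that of Fermt3 was the shortest while that of Itgae was the longest.

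Fermt3 transcripts varied in the same library as those of Itgb2. Fermt3-201, the full-length form, carried 90.3% and 66.1% of the FPKM in Ob against 90.5% and 85.4% in Ob + Exe. Fermt3-204, an NMD-annotated form that keeps introns 9 and 12 of Fermt3-201 (84 and 331 bases), carried 1.14% and 24.0% in Ob against 5.90% and 11.1% in Ob + Exe. Ob replicate 2 was the high library (2549 read equivalents), as it was for Itgb2-204. Fermt3-203, which keeps intron 12 alone, carried 6.61%, 7.45%, 0% and 0.804% in the order Ob then Ob + Exe, and was listed at 0 in Ob + Exe replicate 1. Retained-intron transcripts of all genes held 4.27% and 5.60% of FPKM in Ob against 6.80% and 4.53% in Ob + Exe, with Ob + Exe replicate 1 the highest library, while Ob replicate 2 was highest for the NMD-annotated share given above.

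Itgb2 and Itgam had the same order of libraries as the summed neutrophil markers. All 15 neutrophil markers were higher in Ob replicate 1 than in Ob replicate 2, and 11 of 15 were higher in Ob + Exe replicate 2 than in replicate 1. Their summed FPKM was 51530 and 29240 in Ob against 38170 and 68600 in Ob + Exe. In Itgb2, Itgam and this sum, Ob + Exe replicate 2 was highest and Ob replicate 2 lowest. S100a8 and S100a9 held the largest parts of the sum in every library. S100a8 was at 20830 and 11900 in Ob against 16090 and 35870 in Ob + Exe. S100a9 was at 17060 and 9597 against 11680 and 18290. Camp, Ngp, Csf3r, Elane, Mpo and Prtn3 had other orders of libraries. Summed monocyte and macrophage markers were 611 and 559 in Ob against 561 and 618 in Ob + Exe. These sums kept the order of the neutrophil sum, but most of the 14 markers singly did not. Only 6 were higher in Ob replicate 1 than in replicate 2, and 4 in Ob + Exe replicate 2 than in replicate 1. Ly6c2 held the largest part, at 332 and 268 in Ob against 249 and 333 in Ob + Exe. Summed eosinophil, basophil and mast cell markers also had the neutrophil order, at 291.2 and 215.5 in Ob against 246.6 and 405.5 in Ob + Exe. Of these 11 markers, 8 and 9 were higher in the same comparisons. The order of the sums was thus not particular to neutrophil markers. The part of neutrophil share, or of the share of these other cells, in the Itgb2 and Itgam values was not tested. Of the 15 neutrophil markers 14 were higher in Ob + Exe and their log2 fold changes had a median of 0.32. The median of the 14 monocyte and macrophage markers was -0.03. None of the 15 neutrophil and none of the 14 monocyte and macrophage markers passed the thresholds or had an unadjusted p under 0.05 in limma.

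**Figure D5:**
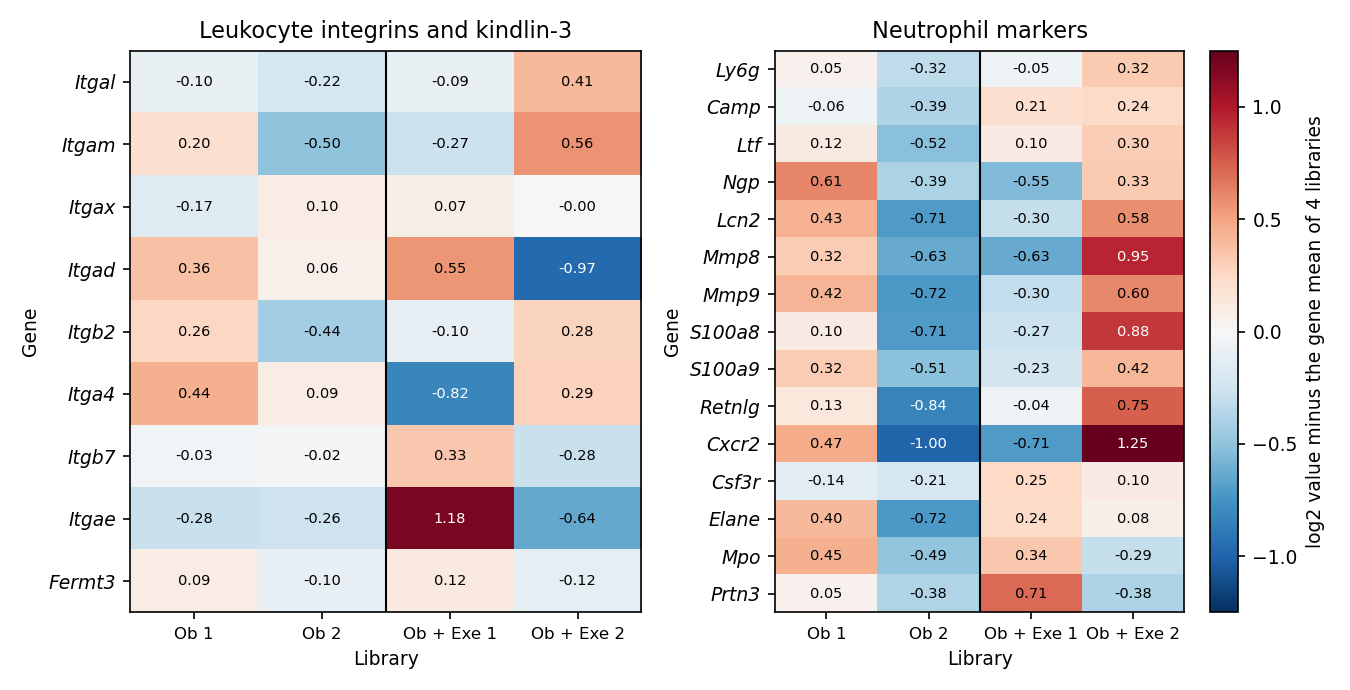
log2 value of each gene in each library minus the gene's mean over the 4 libraries, for the 9 genes and for 15 neutrophil markers. Red cells lie above the gene's mean and blue cells below, and Itgam, Itgb2 and most neutrophil markers are lowest in Ob 2 and highest in Ob 1 or Ob + Exe 2.

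The genes most like Itgb2 were sought among 5820 genes of at least 10 FPKM by the root mean square difference of centred log2 values over the 4 libraries. Spi1, which encodes PU.1, was nearest (0.0349), at 91.4 and 59.4 scaled FPKM in Ob against 71.8 and 91.6 in Ob + Exe. Ap3s1, Surf4, Vcl and Sft2d2 followed (0.0486 to 0.0520). Among integrin chains and Fermt3, Itgb2l ranked 152, Itgam 400, Itgal 912, Fermt3 2123, Itgb7 4191 and Itga4 4377. With 4 points this is a description only, and the points share their libraries.

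Of 19 other integrin subunits, 13 were tested, 2 were called lower in Ob + Exe and none higher, with a median log2 fold change of -0.17. Over all genes tested, 3.74% were called, 511 lower and 185 higher, so calls leaned lower in the whole table too. The called genes were Itga6, the laminin-binding α6 chain, at 17.6 and 16.4 scaled FPKM in Ob against 2.01 and 2.67 in Ob + Exe (log2 fold change -2.82, adjusted p = 0.737), and Itga2, the collagen-binding α2 chain, at 1.39 and 1.39 against 0.623 and 0.454 (log2 fold change -1.23, adjusted p = 0.960). Both fell in every Ob + Exe library, and neither held after adjustment. Itga6 and Itga2 are also made by megakaryocytes, whose 9 markers had a median log2 fold change of -0.95, with Gp1ba, Gp1bb and Treml1 called lower. The summed FPKM of the 9 was 486 and 363 in Ob against 392 and 147 in Ob + Exe. The part of megakaryocytes in the Itga6 and Itga2 values was not tested. Itgb2l, the β2-like chain, was at 79.9 and 51.6 in Ob against 57.2 and 95.5 in Ob + Exe, in the order of Itgam, and the value of Itga10 was 0.23 on the log2 scale without passing the test.

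Of 17 ligands and counter-receptors, 13 were tested and 1 was called, F11r (JAM-A, a ligand of LFA-1), at 2.63 and 3.14 in Ob against 1.59 and 0.846 in Ob + Exe (log2 fold change -1.23, adjusted p = 0.960). The others named by the rule did not pass. Fn1, which encodes fibronectin, an α4β1 ligand, had a log2 fold change of 0.40, with 39.4 and 47.3 in Ob against 50.9 and 63.4 in Ob + Exe. Its read equivalents, not corrected for depth, were 19141 and 12590 in Ob against 12156 and 14951 in Ob + Exe. Ob replicate 1 was thus the lowest library by FPKM and the highest by read equivalents, and the reason was not tested. Vcam1, the α4 ligand on stroma and macrophages, was at 35.8 and 35.3 against 40.2 and 38.4 (log2 fold change 0.14), and Icam1 at 4.15 and 3.22 against 5.16 and 2.52. Icam4, on red cells, and Icam5 gave 0.19 and -0.81, the last with 1 library listed at 0. Cdh1, the E-cadherin that αEβ7 binds, stayed between 1.90 and 2.80, and Madcam1 was at 0.0550 in Ob replicate 1 and listed at 0 in the other libraries.

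Of 25 genes of inside-out activation, 24 were tested and none was called, with 14 higher, 10 lower and a median log2 fold change of 0.09. Tln1, which encodes talin, was at 56.3 and 42.9 in Ob against 41.1 and 48.1 in Ob + Exe. Rap1b, the main Rap1 of blood cells, was at 146 and 115 against 108 and 177. Rasgrp2, a Rap1 exchange factor, was at 88.6 and 115 against 152 and 81.5, and Apbb1ip (RIAM, which joins Rap1 to talin) at 32.3 and 28.7 against 25.2 and 31.4. In each of these 4 genes the groups overlapped. Fyb and Cytip had the smallest p among higher genes, with log2 fold changes of 0.26 and 0.36, and Rap1gap, which was listed at 0 in both Ob + Exe libraries, and Dok1 among lower ones (Dok1 log2 fold change -0.36). Fyb read equivalents, not corrected for depth, were 5998 and 5951 in Ob against 5067 and 5071 in Ob + Exe. The totals of the libraries were 53038186 and 50423542 against 44310505 and 46668748. The rise of Fyb in FPKM was thus not plain in read equivalents, and the reason was not tested. With limma, none of the 24 had an unadjusted p under 0.05.

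Of 23 genes of outside-in signalling without Fermt3, all 23 were tested and none was called, with 17 higher, 6 lower and a median of 0.17. Parvb, a β-parvin of focal adhesions, was at 30.9 and 25.9 in Ob against 20.0 and 18.9 in Ob + Exe (log2 fold change -0.54, adjusted p = 0.960), below both Ob libraries in each Ob + Exe library, but short of the fold threshold, and it was the only 1 of the 23 with an unadjusted p under 0.05 in limma. Parvg, the parvin of leukocytes, was at 41.3 and 28.5 against 41.1 and 58.0 (0.51). Zap70, a T cell kinase, gave 0.73 and Src -0.84, and neither passed. Of the 9 genes of rolling and tethering, none was called and none had an unadjusted p under 0.05 in limma. Fut7, which builds selectin ligands, was at 6.32 and 6.17 against 9.96 and 7.92 (0.50), St3gal4, which acts on the same ligands, at 19.4 and 19.9 against 25.6 and 25.1 (0.37), and Sele and Selp gave -0.79 and -0.60.

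Of the remaining marker lists, B cell markers (11) had 2 called lower, Cd79a and Igll1, and a median of -0.45. T and NK cell markers (14) and dendritic cell markers (10) had none called, with medians of 0.15 and 0.01. These are among the cells that use Itgae, Itgb7 and Itgax, and which cells carried those genes here was not tested. Summed T and NK markers were 89.5 and 57.1 in Ob against 97.3 and 61.1 in Ob + Exe. Nkg7 held the largest part of this sum in every library, at 51.05 and 27.39 in Ob against 51.66 and 36.11 in Ob + Exe. Eosinophil, basophil and mast cell markers (11) had 1 called higher, Prg2, erythroid markers (10 found of 11) had none, and stroma markers (13) had Col1a1 lower. Beside these calls stand 511 lower and 185 higher over all genes tested.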

How the data were processed

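Bone marrow RNA was read in 4 libraries, 2 Ob and 2 Ob + Exe, grouped from the titles. The authors trimmed reads with fastp, removed ribosomal reads, aligned to GRCm38 with HISAT2 and assembled with StringTie on GENCODE vM25 (versions not given in the sources used here). They deposited, per transcript, coverage (a signal) and FPKM. Whole reads could not be recovered, so count tests were not run, although the authors used DESeq2. Gene FPKM was summed over transcripts, divided by median-of-ratios factors (0.945 to 1.04), and log2(FPKM + 0.1) was tested with limma 3.58.1 in R 4.3.3, keeping genes that averaged 0.1 FPKM or more, with 2 residual and 3.79 prior degrees of freedom. A fold change on this scale understates changes of low genes. A gene was called when p before adjustment was below 0.05 and log2 fold change beyond 1 either way; adjusted p-values are Benjamini-Hochberg over all genes tested. Ratios within a library were compared by exact permutation over libraries, 9 ratios, all adjusted p = 1. Alternatives changed the scaling, pseudocount, filter, model, transcript choice and libraries one at a time. The 43 member transcripts matched GENCODE vM21 coordinates; promoter windows came from RefSeq. The fit was tested on simulated data. The genes named beside the members were those called in each list, the 2 with the smallest p in each direction, and the partners of the members; the nearest genes to Itgb2 were named by distance. The members and lists were chosen with earlier results of these data known.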

Additional observations from a re-analysis of the deposited data

How the results depend on the processing

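The number of genes called over the whole table, 696, was 222 with a pseudocount of 1, 270 with a mean of at least 1 FPKM, 455 with voom on read equivalents and 1059 without an intensity trend. Leaving out 1 library gave 599 to 1849, with 1229 without Ob + Exe replicate 1 and 1849 without Ob + Exe replicate 2. Members called stayed at 0 in all settings but 1, which gave 1 (Itga4, -1.10, without Ob + Exe replicate 2), so the range was 0 to 1. Differences between replicates 1 and 2 correlated at -0.106 between the groups, and at -0.235 over the 12409 genes with a mean of at least 1 FPKM. Equal numbers were therefore not taken as pairs. With a replicate block 744 genes were called, and 18 genes had an adjusted p under 0.05. With the numbers crossed 802 were called, and 11 genes had an adjusted p under 0.05. No member was called in either, and the block changed no call of a member. The crossed pairing was added after seeing the data. With it Itga4 had an unadjusted p of 0.0467 in limma (log2 fold change -0.53, adjusted p = 0.606).

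Of 98 member values under other settings, 8 changed sign. Without scaling Fermt3 was -0.081, Itgax -0.015 and Itgb7 -0.035. With quantile normalization Fermt3 was -0.066, and with voom Fermt3 was -0.043 and Itgax -0.061. With the most abundant transcript only, Itgax was -0.046, the α to β2 log2 ratio difference -0.053, and Itgad 1.77, where its top transcript is listed at 0 in Ob replicate 1. The cause of the others was not tested.

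Of 36 member values with 1 library left out, 11 changed sign: without Ob replicate 1 Itgax, without Ob replicate 2 Itgam, Itgb2 and Fermt3, without Ob + Exe replicate 1 Itga4, Itgb7, Itgae and Fermt3, and without Ob + Exe replicate 2 Itgam, Itgad and Itgb2. The ranges were 0.058 to 0.557 for Itgal, -0.13 to 0.70 for Itgam, -0.069 to 0.19 for Itgax, -1.20 to 0.33 for Itgad, -0.19 to 0.52 for Itgb2, -1.10 to 0.008 for Itga4, -0.27 to 0.35 for Itgb7, -0.38 to 1.45 for Itgae, -0.13 to 0.12 for Fermt3 and -0.045 to 0.264 for the α to β2 ratio. Having 2 libraries a group limits every test, and no adjusted p over the settings tried fell under 0.386 for a member. Itgae rested on 21 to 137 read equivalents.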
